A study of Homo sapiens with 21 samples.

Results

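Matrix metalloproteinases are zinc-dependent enzymes that cut the proteins of the extracellular matrix, and tissue inhibitors of metalloproteinases (TIMPs) are small secreted proteins that bind and block them. The transcripts of 10 such genes, chosen by name and found by symbol through the Ensembl gene identifier among 60617 genes, were followed across 7 lines of SUM149PT, an established human line of inflammatory breast cancer, negative for the estrogen and progesterone receptors. They were 7 enzymes (MMP1, MMP2, MMP3, MMP7, MMP9, MMP13 and MMP14) and 3 inhibitors (TIMP1, TIMP2 and TIMP3). The lines were clones EM1, EM2, EM3, M1, M2 and E and the uncloned line they came from, Parental, with 3 libraries each and 21 in all. No line was treated or carried a stated genetic change, and each clone is 1 clone, so a difference between 2 lines cannot be told apart from a difference between 2 clones. The study concerns the plasticity of cells part of the way through epithelial-mesenchymal transition, and the letters of the clone names are given here as the submitters wrote them.

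Most metalloproteinases are made as inactive precursors and are secreted, so their transcript level is only the first of several steps that set their activity, and no activity was measured. MMP1 and MMP13 are collagenases that cut fibrillar collagen. MMP2 and MMP9 are gelatinases that cut denatured collagen and basement membrane collagen. MMP3 is a stromelysin with a broad range of substrates, MMP7 is the small matrilysin made mainly by epithelial cells, and MMP14 is anchored in the cell membrane, where it cuts collagen and, together with TIMP2, activates the MMP2 precursor. TIMP1 blocks most secreted metalloproteinases, TIMP2 blocks them and also bridges MMP14 and MMP2, and TIMP3 is held in the matrix and also blocks proteases of the ADAM and ADAMTS families.

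Upstream sequences were available for 4 members. Those of MMP7, MMP14 and TIMP3 are shown, because these 3 genes averaged above 3 TPM in some lines and were near 0 in others. MMP9 and MMP13 also did so, but no sequence was available for them. Each run is the 250 bases before the gene's start in the RefSeq table for GRCh38.p14, written 5′ to 3′ on the strand of the gene. They lie at chr11:102530748-102530997 (minus strand), chr14:22836335-22836584 (plus strand) and chr22:32801455-32801704 (plus strand). Capitals mark every match, on either strand, to the AP-1 motif TGANTCA, the PEA3 motif AGGAAG of ETS factors, the Sp1 motif GGGCGG and the TATA box TATAAA.
MMP7: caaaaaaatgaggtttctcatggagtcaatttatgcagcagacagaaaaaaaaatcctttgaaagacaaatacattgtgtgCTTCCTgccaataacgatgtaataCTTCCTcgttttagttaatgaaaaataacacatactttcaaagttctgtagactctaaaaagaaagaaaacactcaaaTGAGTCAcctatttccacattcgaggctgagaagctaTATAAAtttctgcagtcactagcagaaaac
MMP14: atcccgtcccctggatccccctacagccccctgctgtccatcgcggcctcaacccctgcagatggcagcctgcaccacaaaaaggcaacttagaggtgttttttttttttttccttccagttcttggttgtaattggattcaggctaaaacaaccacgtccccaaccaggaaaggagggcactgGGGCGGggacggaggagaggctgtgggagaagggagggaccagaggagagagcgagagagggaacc
TIMP3: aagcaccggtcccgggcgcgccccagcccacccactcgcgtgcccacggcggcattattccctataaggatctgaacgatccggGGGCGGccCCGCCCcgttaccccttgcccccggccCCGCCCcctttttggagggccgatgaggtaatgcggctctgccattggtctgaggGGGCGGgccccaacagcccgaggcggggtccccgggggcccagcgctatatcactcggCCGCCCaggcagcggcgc

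The MMP7 window held TGAGTCA at 67 bases before the start, CTTCCT, which is AGGAAG on the other strand, at 169 and 145 bases, and TATAAA at 30 bases. The share of the 35116 windows of the same length in the table that hold each motif was 6.57% for TGANTCA, 28.7% for AGGAAG, 42.6% for GGGCGG and 10.7% for TATAAA. The MMP14 window held GGGCGG once, at 66 bases. The TIMP3 window held GGGCGG or its complement CCGCCC at 166, 158, 131, 76 and 18 bases. The share of G plus C was 33.6% of the MMP7 window, 56.8% of the MMP14 window and 72.4% of the TIMP3 window, against a median of 58% in the table. CG dinucleotides numbered 3 in the MMP7 window, 7 in the MMP14 window and 26 in the TIMP3 window. These matches are letters in a window and do not show that a factor binds there.

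Levels are in TPM, each gene's share of a library's transcripts on a fixed total, which adjusts for gene length, and differences are log2 fold changes of counts from edgeR with their standard error. A gene was called changed in a comparison when its Benjamini-Hochberg adjusted p, over all 18632 genes tested, was under 0.05. All 10 members passed the low-count filter. Libraries held about 24602400 to 48149900 counts. By mean effective length, the clone libraries fell into a short set of 8 libraries (all 3 of E and replicate 3 of each other clone) and a long set of the other 10. With this set as a term in the model, all 39 member calls between clones held their direction and their call (edgeR). Fits within 1 set alone used the short set for comparisons with E and the long set for the others. In the long set 4 calls were lost. They were MMP3 and TIMP2 in M2 against M1, TIMP2 in EM3 against EM1 and MMP7 in EM3 against EM2. The short set has 1 library of each clone other than E and 2 residual degrees of freedom, all from E. Its lone libraries are therefore assumed to vary like the E libraries. Pairs of E libraries differed by a chi-square of 7.63 to 28.5 per gene. Pairs of long-set libraries of 1 clone differed by 73.4 to 240, so the short set may take too small a spread. Calls were far more frequent there, at 55.7% of all genes in M1 against E. Epithelial markers summed to between 328.77 and 763.76 TPM in the libraries of M1 and M2 and to at least 1163.12 in every other library. Fibroblast markers summed to 2304.94 to 3236.02 TPM in M1, with 3 of 6 at a mean of at least 1 TPM, to 128.98 to 265.88 in EM2, 92.42 to 165.05 in EM3, 9.15 to 21.18 in EM1, 22.39 to 34.7 in M2 and 46.88 to 57.57 in E. PDGFRB was higher in M2, at 3.3 TPM on average and 0.02 in E. COL1A1 also averaged more in M2, at 15.2 TPM and 6.17 in E, but was not called. Of the 6, LUM and THY1 were at or below 0.63 and 0.33 TPM throughout. The part of these markers in the M1, EM2 and EM3 results was not tested. Leukocyte markers summed to 157 to 228.06 TPM in M1, 16.17 to 42.67 in M2 and 125.23 to 128.65 in E, nearly all of it CD68. The defining leukocyte markers LYZ, CD3E, MPO and ELANE were at or below 0.16 TPM in all 21 libraries, PTPRC at or below 1.37 and CD14 at or below 4.77. In bulk libraries, fewer cells with a transcript and less transcript per cell cannot be told apart.

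The comparisons of the 5 other clones with E share the 3 E libraries. In M1 against E, 5 members were higher and 1 lower, where 36.2% of all genes tested were called in either direction (18.1% higher, 18.1% lower). In M2 against E, 2 members were higher and 6 lower, with 51.3% of all genes called (24.6% higher, 26.8% lower). In EM1 against E, 1 member was lower and none higher, with 17.9% of all genes called (9.84% higher, 8.09% lower). In EM2 against E, 2 were higher and 2 lower, with 13.9% of all genes called (6.95% in each direction). In EM3 against E, 2 were higher and 3 lower, with 17.3% of all genes called (9.36% higher, 7.96% lower). In M2 against M1, 6 were lower and none higher, with 41.2% of all genes called (19% higher, 22.2% lower). In EM2 against EM1, 4 were higher and 1 lower, with 8.14% called (3.5% higher, 4.63% lower). In EM3 against EM1, 1 was higher, with 0.37% called (0.172% higher, 0.199% lower). In EM3 against EM2, 1 was higher and 2 lower, with 6.74% called (3.93% higher, 2.81% lower). In E against Parental, 3 were higher and 1 lower, with 11% called (5.03% higher, 5.93% lower). The median log2 fold change of the 10 members was 1.88 in M1 against E and -4.33 in M2 against E (-2.76 with genes at 0 counts in M2 set at their bounds), against 0.03 and 0.01 over all genes tested. It was -1.49 in EM1 against E, 0.01 in EM2 against E and -1.33 in EM3 against E, where the medians over all genes were 0.04, 0.01 and 0.03.

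**Figure D1:**
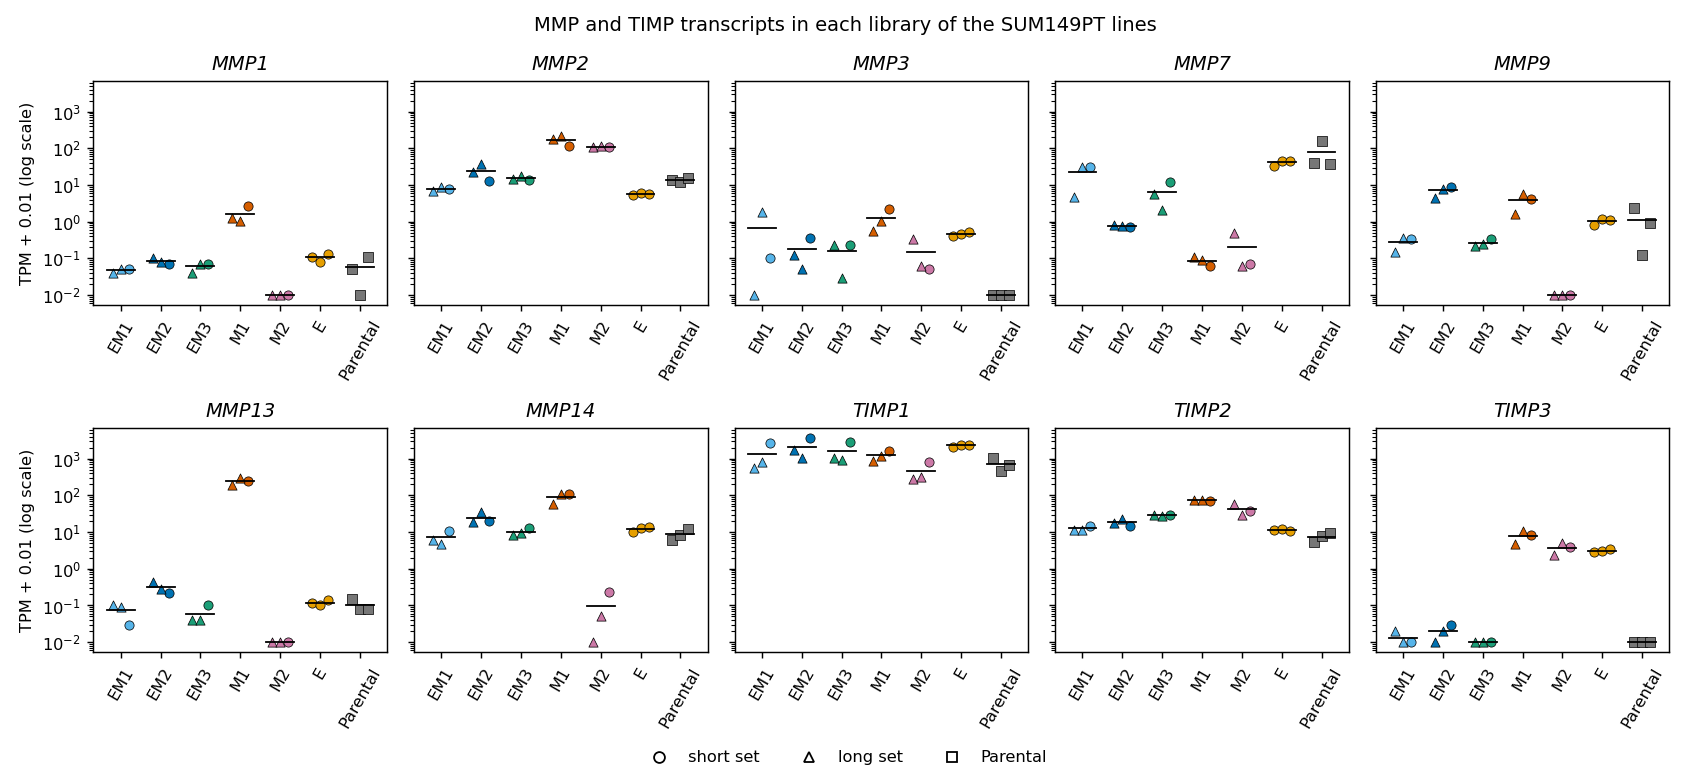
TPM of the 10 members in each library on a log scale with 0.01 added, by line, with circles for the short set, triangles for the long set, squares for Parental and a bar at the mean of the 3 libraries. MMP13 stood at 191 TPM or more in the 3 M1 libraries and at 0.43 TPM or less in the other 18, and MMP2 was above 100 TPM in the 6 libraries of M1 and M2 alone.

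MMP13 (collagenase 3; chr11:102942995-102955734, hg38) was abundant in clone M1 and at trace level everywhere else. It had 191, 298 and 243 TPM in the M1 libraries, 0 in all 3 M2 libraries, and 0.11, 0.09 and 0.13 TPM in the E libraries. The 3 M1 libraries together held 68048 counts, the M2 libraries 0 and the E libraries 41. It rose in M1 against E by 10.83 ± 0.58 log2 units (edgeR adjusted p = 9.04e-10), and the value within the short set was 10.68. Against M1, M2 was at least 19841-fold lower, and against E at least 10.8-fold lower, taking 3 counts over the M2 libraries as the limit that 0 allows (edgeR adjusted p = 8.54e-11 and 0.000371). Among the EM clones the mean was 0.303 ± 0.114 TPM in EM2, 0.0633 ± 0.0379 in EM1 and 0.05 ± 0.0346 in EM3 (SD, n = 3 each). EM2 stood above EM1 by 2.87 ± 0.62 log2 units (edgeR adjusted p = 0.00738), from 79 counts in EM2 and 9 in EM1. EM3 lay below EM2 by -2.61 ± 0.57 (edgeR adjusted p = 0.00949), with an adjusted p of 0.0502 to 0.0525 without EM2 replicate 1, EM3 replicate 1 or EM3 replicate 2, and -3.36 without EM3 replicate 3.

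MMP1 (interstitial collagenase; chr11:102789920-102798160) was also highest in M1 and at 0 in M2, at a much lower level. It had 1.24, 1.06 and 2.65 TPM in M1, 0 in the 3 M2 libraries and 0.1, 0.07 and 0.12 TPM in E. It rose in M1 against E by 3.69 ± 0.60 log2 units (edgeR adjusted p = 0.00015). MMP1 passed the low-count filter only through the M1 libraries, so this call adds little to the levels themselves. Without M1 replicate 3, its highest library, the change was 2.99. M2 was at least 108-fold lower than M1 and at least 8.40-fold lower than E, and both differences were called (edgeR adjusted p = 7.31e-07 and 0.000271). The filter limits the call of M2 against M1 in the same way as that of M1 against E. No EM clone exceeded a mean of 0.0733 TPM, and none was called against E.

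MMP3 (stromelysin 1; chr11:102835801-102843803) stayed near the limit of detection in every line. It had 0.55, 1.04 and 2.18 TPM in M1, 0.32, 0.05 and 0.04 in M2, 0.4, 0.44 and 0.5 in E, and 0 in the 3 Parental libraries. M1 against E was 1.43 ± 0.90 and not called (edgeR adjusted p = 0.226), but 2.06 and called with a term for the library set (edgeR adjusted p = 0.038). A value of 1.87 TPM in EM1 replicate 2 rested on 2 counts over an effective length of 36.14 bases, where the same gene had 1510 bases in EM1 replicate 3. It was lower in M2 than in M1 by -3.14 ± 0.99 log2 units (edgeR adjusted p = 0.0179), a call that ended without M1 replicate 3 (adjusted p = 0.12), M2 replicate 2 (0.0628) or M2 replicate 3 (0.0671) and within the long set (0.238). E held 86 counts and Parental 0, so E was at least 17.9-fold higher (edgeR adjusted p = 0.0154). Without Parental replicate 3 the adjusted p of that difference was 0.0522.

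MMP7 (matrilysin; chr11:102520508-102530753) was highest in Parental and E and at trace level in M1 and M2. It had 0.1, 0.08 and 0.05 TPM in M1 and 0.47, 0.05 and 0.06 TPM in M2, against 33.4, 44.6 and 46.3 TPM in E. The change was -9.44 ± 1.10 log2 units in M1 and -8.09 ± 1.01 in M2 (edgeR adjusted p = 2.73e-06 and 2.49e-06), and without M2 replicate 1 the M2 change was -9.66. Within the short set the values were -9.84 for M1 and -9.45 for M2.

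Among the EM clones, MMP7 was lowest in EM2. EM1 had 4.65, 30.3 and 31.2 TPM, EM2 0.78, 0.73 and 0.71 TPM, and EM3 5.84, 2.04 and 11.9 TPM. EM2 lay below E by -6.11 ± 0.88 log2 units (edgeR adjusted p = 0.000138) and below EM1 by -4.89 ± 0.84 (edgeR adjusted p = 0.000918). The libraries did not overlap in these 2 comparisons, nor in EM3 against E, EM3 against EM2 or EM1 against E, which was not called. EM3 lay below E by -3.00 ± 0.75 (edgeR adjusted p = 0.00925), or by -3.91 without EM3 replicate 3, its highest library, and by -2.06 within the short set. EM3 lay above EM2 by 3.11 ± 0.79 (edgeR adjusted p = 0.0209), a call that ended without any 1 of the EM2 libraries or EM3 replicate 3 (adjusted p = 0.135) and within the long set (adjusted p = 0.272). EM3 against EM1 was -1.78 ± 0.72 with overlapping libraries and was not called (edgeR adjusted p = 0.921). The value for EM1 against E was -1.22 ± 0.70 and was not called (edgeR adjusted p = 0.235). Parental libraries spread from 38.5 to 155 TPM, and E against Parental was not called (edgeR adjusted p = 0.526).

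**Figure D2:**
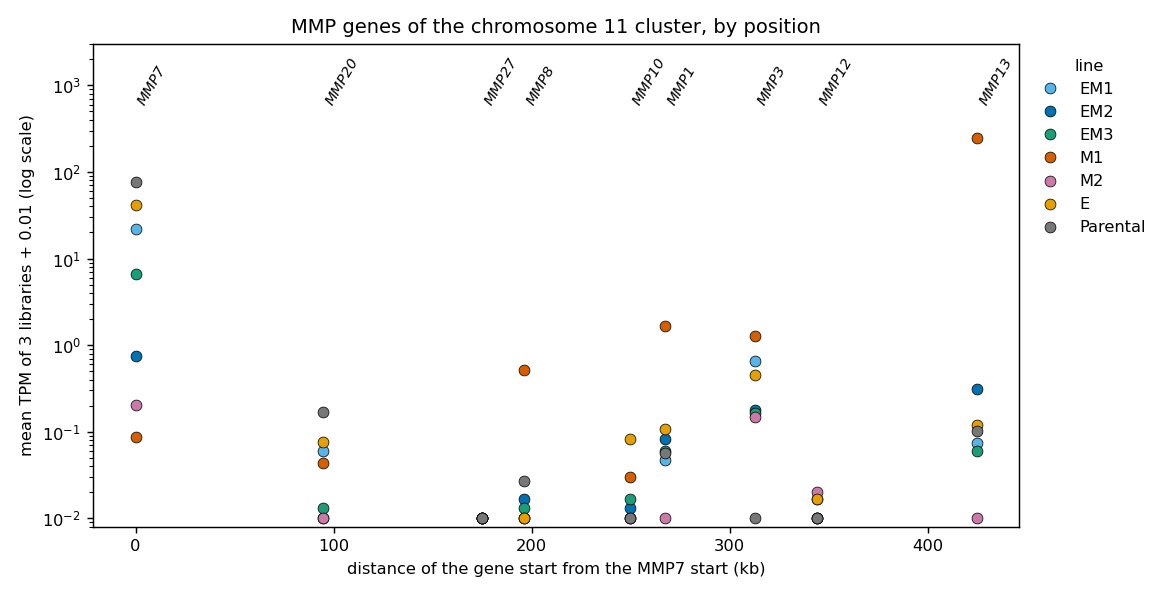
Mean TPM of 3 libraries per line, on a log scale with 0.01 added, of the 9 MMP genes of the chromosome 11 cluster against the distance of each gene's start from that of MMP7 in kilobases. MMP7 and MMP13, at the ends of the cluster, were the 2 genes that passed 10 TPM in any line, MMP7 with its lowest mean in M1 and MMP13 with its highest mean there.

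MMP1, MMP3, MMP7 and MMP13 belong to a cluster of 9 MMP genes that spans 435 kb of chromosome 11, all on the minus strand in the GENCODE 29 annotation. The MMP7 and MMP13 starts lie 425 kb apart at its ends. Between them, MMP8, a collagenase best known from neutrophils, had 20, 40 and 46 counts in the M1 libraries and none in the M2 or E libraries. MMP10, MMP12, MMP20 and MMP27 did not pass the low-count filter. In clone M1, MMP13, MMP1 and MMP8 were called higher than in E and MMP7 was called lower. MMP8 and MMP1 passed the low-count filter only through the M1 libraries, where they were high. Their calls therefore add little to the counts themselves.

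MMP2 (gelatinase A; chr16:55389700-55506691) was the 1 enzyme of the 7 with a mean of at least 1 TPM in every line, and it was highest in both M clones. It had 177, 219 and 118 TPM in M1 and 107, 119 and 107 TPM in M2, against 5.31, 6.08 and 5.55 TPM in E. It rose by 4.49 ± 0.28 log2 units in M1 and by 4.09 ± 0.27 in M2 (edgeR adjusted p = 1.16e-09 and 6.78e-10), and by 4.42 and 4.53 within the short set. M2 against M1 was -0.40 ± 0.24 and was not called (edgeR adjusted p = 0.199). In TPM the libraries of M2 and M1 overlapped across the sets, but within each set those of M2 were lower. In CPM, the gene's share of all counts on a fixed total with no adjustment for length, M2 was lower in the long set only. In the short set, with 1 library of each clone, M2 had 203.7 CPM and M1 187.7 CPM. With a term for the library set M2 against M1 was -0.42 and not called (edgeR adjusted p = 0.126). Within the long set M2 against M1 was -0.71 and called (edgeR adjusted p = 0.0349). Without M2 replicate 3 it was -0.70 and called (edgeR adjusted p = 0.0263). EM2 had 22.1, 36.9 and 13.1 TPM, EM3 14.5, 17.2 and 13.7 TPM, and EM1 6.88, 8.61 and 7.69 TPM. MMP2 rose against E in EM2 by 1.69 ± 0.25 and in EM3 by 1.07 ± 0.24 log2 units (edgeR adjusted p = 0.000152 and 0.00505), while the EM1 value was 0.02 ± 0.24 (edgeR adjusted p = 0.971). EM2 also lay above EM1 by 1.68 ± 0.25 (edgeR adjusted p = 0.000219). E lay below Parental (13.4, 12 and 15.1 TPM) by -0.85 ± 0.24, a call at an adjusted p of 0.0324 (edgeR) that ended when any 1 library of either line was left out (0.0509 to 0.116).

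MMP9 (gelatinase B; chr20:46008908-46016561) reached a few TPM in EM2 and M1 and was not detected in M2. EM2 had 4.52, 7.97 and 9.04 TPM, EM1 0.14, 0.35 and 0.33 TPM, EM3 0.21, 0.24 and 0.32 TPM, M1 1.6, 5.7 and 4.18 TPM, and E 0.8, 1.19 and 1.1 TPM. EM2 exceeded EM1 by 4.75 ± 0.85 log2 units (edgeR adjusted p = 0.00173), and EM3 lay below EM2 by -4.89 ± 0.85 (edgeR adjusted p = 0.00159). Against E, EM2 was higher by 2.51 ± 0.75 and EM3 lower by -2.38 ± 0.78 (edgeR adjusted p = 0.0341 and 0.0447). The first call ended without any 1 of the E libraries, EM2 replicate 2 or EM2 replicate 3 (adjusted p 0.0689 to 0.12), and the second without any 1 of 12 libraries (adjusted p 0.0506 to 0.146). Within the short set the EM2 and EM3 values were 3.05 and -1.95. M2 held 0 counts, E 408 and M1 1055, so M2 was at least 107-fold lower than E and at least 308-fold lower than M1 (edgeR adjusted p = 4.58e-05 and 1.06e-05). M1 against E was 1.51 ± 0.73 and was not called (edgeR adjusted p = 0.116), but it was 1.95 and called with a term for the library set (edgeR adjusted p = 0.00411). The value within the short set was 1.80. The 3 Parental libraries ranged from 0.11 to 2.35 TPM.

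MMP14 (membrane-type 1 metalloproteinase; chr14:22836557-22849027) averaged 7.22 TPM or more in every line but M2, where it was near 0. It had 59.9, 108 and 107 TPM in M1 and 0, 0.04 and 0.22 TPM in M2, against 9.94, 13.1 and 13.8 TPM in E. The M2 values rested on 0, 4 and 8 counts. It rose in M1 by 2.67 ± 0.40 log2 units (edgeR adjusted p = 4.89e-05) and the change in M2 was -8.12 ± 0.58 (edgeR adjusted p = 1.76e-09). The M2 change was -7.52 without M2 replicate 1 and -8.87 without M2 replicate 3. EM2 had 19.1, 34.5 and 20.4 TPM, EM1 6.21, 4.77 and 10.7 TPM, and EM3 8.46, 9.2 and 12.7 TPM. EM2 against E was 0.81 ± 0.38 and not called (edgeR adjusted p = 0.184), but 1.25 and called with a term for the library set (edgeR adjusted p = 0.0146). EM2 lay above EM1 by 1.77 ± 0.39 (edgeR adjusted p = 0.00757), with an adjusted p of 0.0505 without EM1 replicate 2. EM3 against EM2 was -1.29 ± 0.39 and just missed the threshold (edgeR adjusted p = 0.053). Same-numbered libraries of EM3 and EM2 deviated together. With the replicate number as a block over all 21 libraries the value was -1.35 and was called (edgeR adjusted p = 0.0066). With a term for the library set it was -1.37 and was called (edgeR adjusted p = 0.00488). Replicate 3 of both clones is in the short set, so pairing and the set cannot be told apart.

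In M2, the gelatinase MMP2 averaged 111 ± 6.71 TPM (SD, n = 3), while MMP14, which activates the MMP2 precursor, was at 12 counts over the 3 libraries. Among the other membrane-type enzymes, MMP15 averaged 1.66 ± 1.06 TPM in M2 and 4.73 ± 0.265 TPM in E (SD, n = 3 each), and it fell by 1.74 ± 0.45 log2 units (edgeR adjusted p = 0.00325). MMP16 averaged 0.37 ± 0.223 TPM in M2 and 0.383 ± 0.0379 TPM in E, although its counts were called higher by 2.04 ± 0.59 (edgeR adjusted p = 0.00733). MMP17 and MMP25 are bound to the membrane by a lipid anchor. MMP17 averaged 9.59 TPM in M2 and 4.44 TPM in E and was not called (edgeR adjusted p = 0.137). MMP25 fell by 3.67 ± 0.33 (edgeR adjusted p = 3.63e-08).

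**Figure D3:**
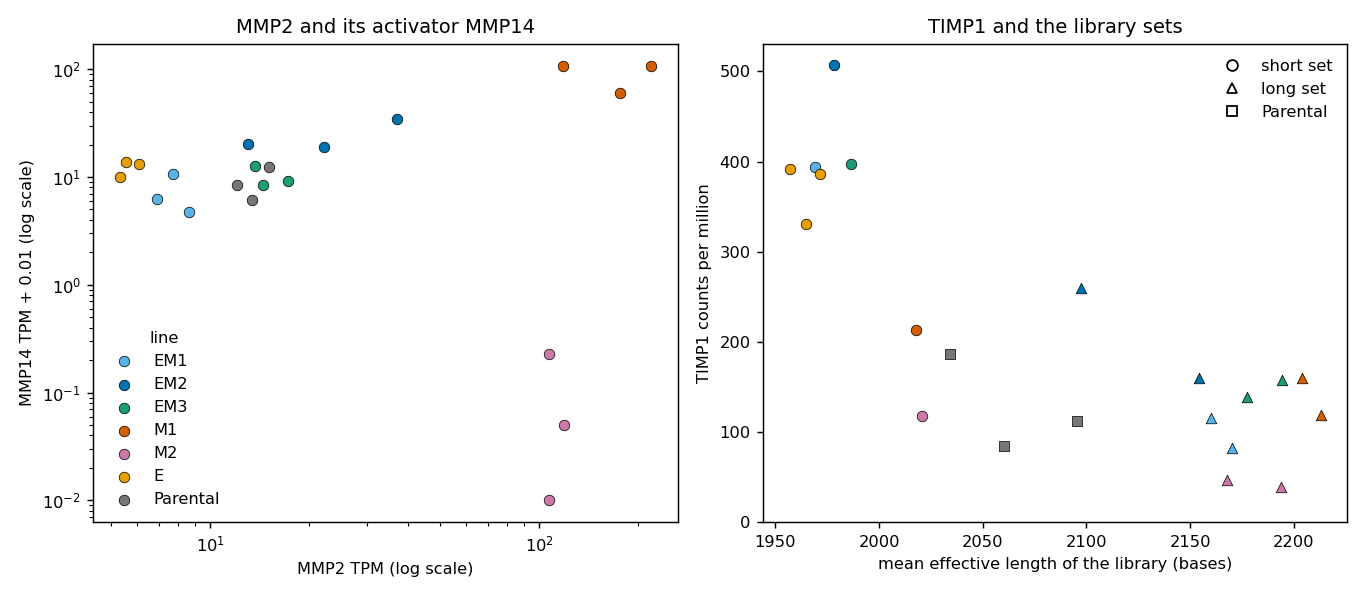
Left, MMP14 TPM with 0.01 added against MMP2 TPM in each of the 21 libraries, both on log scales, and right, TIMP1 CPM against the mean effective length of the library in bases, coloured by line. The M2 libraries stand apart on the left at 107 to 119 TPM of MMP2 with at most 0.22 TPM of MMP14, and on the right replicate 3 of each clone other than E, in the short set, is the highest of its line.

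TIMP1 (chrX:47582313-47586789) had the highest TPM of the 10 members in all 7 lines. Its effective length was only 111 to 145 bases, which raises its TPM relative to its count, so CPM, its share of all counts on a fixed total with no adjustment for length, is given instead. TIMP1 had 38.7, 46.8 and 118 CPM in M2, 118, 159 and 214 in M1, and 331, 386 and 392 in E. It fell in M2 against E by 2.46 ± 0.64 log2 units (edgeR adjusted p = 0.00353). With a term for the library set the value was -1.71 and within the short set it was -1.64. Without M2 replicate 3 it was -3.20. M2 against M1 was -1.30 ± 0.61 and not called (edgeR adjusted p = 0.101), but -1.51 and called with a term for the library set (edgeR adjusted p = 0.000179). For M1 against E the value was -1.16 ± 0.61 and not called (edgeR adjusted p = 0.148). With a term for the library set it was -0.20 and not called (edgeR adjusted p = 0.637). The value within the short set was -0.77. The EM clones had 81.9, 115 and 394 CPM in EM1, 260, 160 and 507 in EM2, and 157, 139 and 397 in EM3. In each clone other than E, replicate 3, which is in the short set with E, was the highest. No EM clone was called against E in the full fit. The sign for EM2 depended on the set, being -0.27 in the full fit (edgeR adjusted p = 0.815) and 0.50 within the short set. TIMP1 overlaps SYN1, on the opposite strand, and SYN1 reached 1357 counts in an EM2 library and at most 7 in M2. The strand setting of the counting is not given in the sources used here, so reads of the 2 genes may be mixed.

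TIMP2 (chr17:78852977-78925387) was highest in M1. It had 75.3, 76.7 and 69.8 TPM in M1 and 58.3, 29.3 and 37.3 TPM in M2, against 11.2, 12 and 11.1 TPM in E. It rose by 2.25 ± 0.24 log2 units in M1 and by 1.49 ± 0.23 in M2 (edgeR adjusted p = 9e-07 and 3.41e-05), and by 2.40 and 1.64 within the short set. M2 against M1 was -0.76 ± 0.23 (edgeR adjusted p = 0.0127), a call that ended without M2 replicate 2 (0.062) and within the long set (0.0631).

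Among the EM clones TIMP2 was highest in EM3, at 29.7, 27.7 and 30 TPM, with 17.8, 22.5 and 14.6 TPM in EM2 and 11.6, 11.1 and 15.1 TPM in EM1. EM3 exceeded E by 0.90 ± 0.23 log2 units (edgeR adjusted p = 0.0109), with an adjusted p of 0.052 without E replicate 1 and 0.0517 without EM3 replicate 3. It was the 1 member called in EM3 against EM1, where the value was 1.12 ± 0.23 (edgeR adjusted p = 0.0408), and the call ended without any 1 of 15 libraries (adjusted p 0.0567 to 0.279). E exceeded Parental (5.34, 7.6 and 9.52 TPM) by 0.94 ± 0.23 (edgeR adjusted p = 0.015), a call that ended without E replicate 2 (0.057) or Parental replicate 1 (0.0535).

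TIMP3 (chr22:32801701-32863043) averaged above 1 TPM in 3 clones and held 5 counts or fewer in each of the other 4 lines. It had 4.8, 10.4 and 8.11 TPM in M1 and 2.38, 5.09 and 3.87 TPM in M2, against 2.81, 3.1 and 3.49 TPM in E. The summed counts were 4486 in M1, 2017 in M2 and 2623 in E, whereas EM1, EM3 and Parental held 1 each and EM2 held 5. The count ratio put EM1 1955-fold below E (95% counting interval 351 to 77258) and EM3 2254-fold below E (404 to 89059). EM2 was lower than E by -8.73 ± 0.67 log2 units, or by -8.12 to -10.23 with EM2 replicate 1 or 3 left out. E was 1639-fold above Parental (294 to 64777). All 4 differences were called (edgeR adjusted p = 1.06e-07 for EM1, 1.42e-07 for EM2, 8.89e-08 for EM3 and 4.71e-07 for E against Parental). M1 against E was 0.92 ± 0.43 and M2 against E -0.04 ± 0.42, neither called (edgeR adjusted p = 0.101 and 0.94). With a term for the library set M1 against E was 1.26 and called (edgeR adjusted p = 0.0234), and the value within the short set was 1.15. E and both M clones therefore held TIMP3 transcripts that were near the limit of detection in the uncloned line and the 3 EM clones. The overlapping gene SYN3, on the opposite strand, had at most 7 counts in any library.

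**Figure D4:**
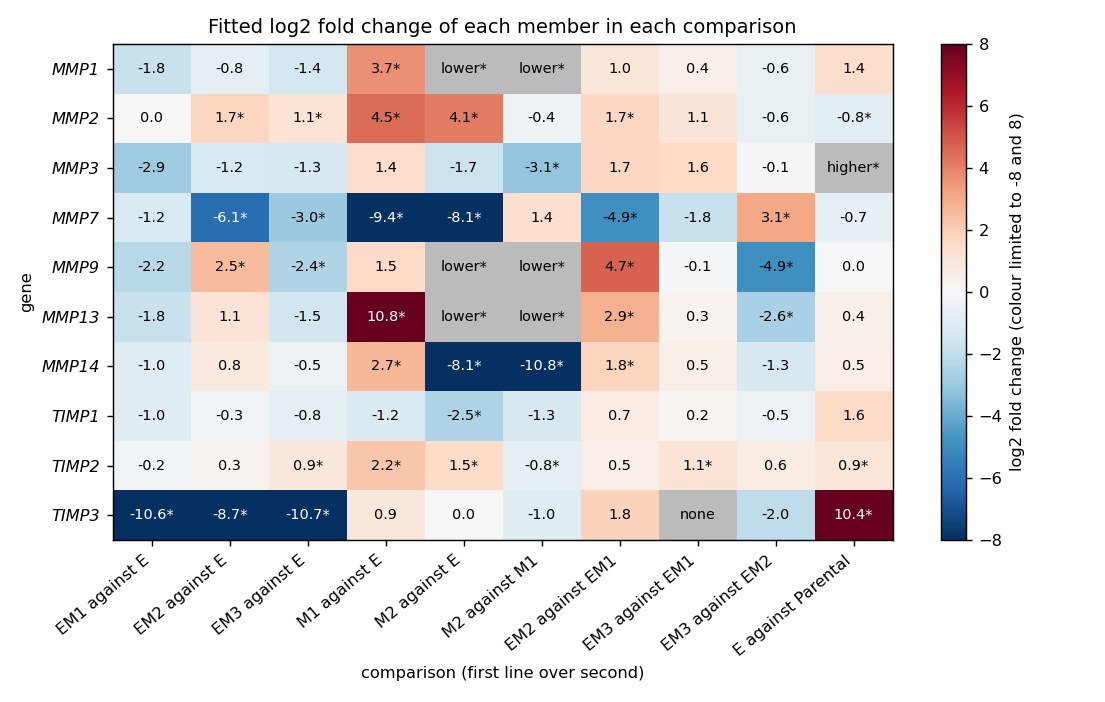
Fitted log2 fold change from edgeR of each member in each of 10 comparisons, first line over second, with a star for an adjusted p under 0.05. Grey cells mark a line with 0 counts, for which only the direction is given, or both lines at 3 counts or fewer (none). The M1 against E and M2 against E columns differ in sign for MMP1, MMP13 and MMP14 and share it for MMP2, MMP7 and TIMP2, the 6 members called in both.

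The 7 enzymes together summed to 514 ± 106 TPM in M1, 111 ± 6.47 in M2, 57.2 ± 20.3 in EM2, 38 ± 17.5 in EM1, 32.4 ± 5.73 in EM3, 61.1 ± 9.55 in E and 101 ± 64.4 in Parental (SD, n = 3 each). Without Parental replicate 2, at 175.25 TPM, the Parental mean was 63.9. MMP7 made up most of the sum in E and Parental, MMP2 nearly all of it in M2, and MMP13 with MMP2 most of it in M1. The ratio of MMP2 to TIMP2 in TPM was 2.30 ± 0.585 in M1, 2.93 ± 1.11 in M2 and 1.26 ± 0.375 in EM2, against 0.494 ± 0.0178 in E and 1.89 ± 0.53 in Parental. It was 0.627 ± 0.138 in EM1 and 0.523 ± 0.088 in EM3.

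Ordered by mean TPM, neighbouring lines often overlapped. For MMP2 the order was M1, M2, EM2, EM3, Parental, EM1 and E. M1 overlapped M2, and EM2, EM3 and Parental overlapped in turn, while gaps separated M2 from EM2, Parental from EM1 and EM1 from E. The gap between EM1 and E was in TPM only. In CPM their libraries overlapped, at 7.71 to 10.3 in EM1 and 8.09 to 9.31 in E. For MMP14 the order was M1, EM2, E, EM3, Parental, EM1 and M2, with gaps after M1, after EM2 and before M2. For MMP7 it was Parental, E, EM1, EM3, EM2, M2 and M1, with gaps between E and EM1, EM3 and EM2, and EM2 and M2. For TIMP2 it was M1, M2, EM3, EM2, EM1, E and Parental, with gaps after M1, after EM3 and before Parental. For TIMP1 every neighbouring pair overlapped.

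The genes most like a member were ranked by the Pearson correlation of log2 mean TPM over the 7 lines among 10589 genes, as a description only. The first was IGFBP4 for MMP2 (r = 0.99), WNK2 for MMP7 (0.99), DHX33 for MMP9 (0.97), CMTM2 for MMP13 (1.00), HGS for MMP14 (0.99), POMZP3 for TIMP1 (0.99), PMM1 for TIMP2 (0.98) and MAGED1 for TIMP3 (0.97). CCL2, a chemokine, was second for MMP13 (1.00), and TIMP4 was ranked 3 for MMP14 (0.99). With 7 points and this many genes, high values arise for any pattern, and the points share libraries and depth.

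For genes other than the members, values are from the full fit only, with no term for the library set. All E libraries are in the short set, so calls against E may carry a part of the set. Of the other 16 MMP genes, 9 passed the low-count filter. In M1 against E 3 were higher and 3 lower, in M2 against E 2 higher and 5 lower, in EM2 against E 3 higher and 1 lower, and in EM1 and EM3 against E 1 higher and 1 lower each. MMP19, an enzyme that cuts basement membrane proteins, averaged 2.66 ± 1.04 TPM in M1 and 3.92 ± 1.64 TPM in M2, against 0.08 ± 0.0361 TPM in E (SD, n = 3 each). It rose by 4.73 ± 0.69 and 5.38 ± 0.70 log2 units (edgeR adjusted p = 3.16e-05 and 4.27e-06). MMP11 averaged 0.107 ± 0.127 TPM in M2 and 1.75 ± 0.844 TPM in E and fell by 4.32 ± 0.64 (edgeR adjusted p = 1.99e-05). MMP24, a membrane-type enzyme, was lower than in E in all 5 other clones, with log2 fold changes between -2.81 ± 0.42 (M2) and -1.07 ± 0.38 (M1; edgeR adjusted p = 1.85e-05 and 0.0371). E also stood above Parental, by 2.13 ± 0.40 (edgeR adjusted p = 0.00287). The means were 0.57 TPM in E and 0.147 TPM in Parental, so E was the line that stood apart.

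Of a list of 7 other inhibitors and related proteoglycans, 5 were tested, with 4 higher and 1 lower in M1 against E, 2 higher and 2 lower in M2 against E, and 1 lower in each EM clone. TIMP4, the remaining TIMP, averaged 10.1 ± 0.727 TPM in M1, had 2 counts in all in M2, and averaged 2.45 ± 0.263 TPM in E (SD, n = 3 each). It rose in M1 by 1.63 ± 0.37 log2 units and was called lower in M2 (edgeR adjusted p = 0.0023 and 1.31e-08). RECK, a membrane-anchored inhibitor of several metalloproteinases, rose by 2.27 ± 0.36 in M1 and 1.86 ± 0.35 in M2 (edgeR adjusted p = 7.8e-05 and 0.000257). The matrix proteoglycan SPOCK1 averaged 66.1 ± 2.73 TPM in M2 and 9.32 ± 2.35 TPM in E and rose by 3.95 ± 0.37 (edgeR adjusted p = 5.77e-08). SPOCK2, a related proteoglycan not itself known as an inhibitor, was the 1 gene of this list lower than E in EM1, EM2 and EM3, by -4.03 ± 0.54, -3.37 ± 0.52 and -5.33 ± 0.58 (edgeR adjusted p = 5.61e-05, 0.000239 and 7.02e-06). It was also lower in M1 and M2, by -3.57 ± 0.52 and -5.57 ± 0.60 (edgeR adjusted p = 3.7e-05 and 3.93e-07). E stood above Parental by 2.27 ± 0.49 (edgeR adjusted p = 0.00713), so low SPOCK2 was not particular to the EM clones.

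All 13 activators and surface partners were tested. In M1 against E 5 were higher and 6 lower, and in M2 against E 1 higher and 7 lower. FURIN, the convertase that removes the prodomain of MMP14, averaged 18.9 TPM in M1, 15.8 in M2 and 55.8 in E. It was lower than in E by 1.98 ± 0.34 and 2.16 ± 0.34 log2 units (edgeR adjusted p = 0.000175 and 3.69e-05). Parental averaged 25.3 TPM, and E stood above it by 1.49 ± 0.33 (edgeR adjusted p = 0.00883). PLAU, the urokinase that forms plasmin and so activates several precursors, averaged 156 TPM in M1, 4.99 in M2 and 22.7 in E. It rose by 2.40 ± 0.76 in M1 and fell by 2.52 ± 0.77 in M2 (edgeR adjusted p = 0.0194 and 0.0108). LCN2, which binds MMP9, averaged 2.43 TPM in M1, 1.10 in M2 and 129 in E and fell by 6.44 ± 0.90 and 6.95 ± 0.93 (edgeR adjusted p = 2.14e-05 and 5.59e-06). CD44, which holds MMP9 and MMP14 at the cell surface, was the 1 member of this list called higher in each EM clone, by 1.44 ± 0.31 in EM1, 1.38 ± 0.31 in EM2 and 1.19 ± 0.31 in EM3 (edgeR adjusted p = 0.0036, 0.00556 and 0.0123). It was also called higher in M1, by 2.19 ± 0.32 (edgeR adjusted p = 3.28e-05). CD44 was highest in M1, at 2303 TPM, and averaged 1177 TPM in Parental, 491 in E and 298 in M2.

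Of the 12 ADAM and ADAMTS proteases, 5 were higher and 1 lower in M1 against E, and 4 higher and 5 lower in M2 against E. ADAM12 averaged 17.8 TPM in M1, 15 in M2 and 1.08 in E and rose by 4.01 ± 0.37 and 3.76 ± 0.37 log2 units (edgeR adjusted p = 1.78e-07 and 1.15e-07). ADAM8 averaged 0.27 TPM in M2 and 7.46 TPM in E and fell by 6.28 ± 0.62 (edgeR adjusted p = 1.43e-07). ADAM19 averaged 32.2 TPM in EM1, 28.8 in EM2 and 3.29 in E, and rose by 3.00 ± 0.75 and 2.87 ± 0.74 (edgeR adjusted p = 0.00961 and 0.0135).

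Of 12 AP-1, ETS and RUNX factors, families whose sites are found in several MMP promoters, 2 were higher and 1 lower in M1 against E, and 2 higher and 2 lower in M2 against E. RUNX2, a known activator of MMP13 transcription in bone and cartilage, averaged 8.39 TPM in M1 and 5.49 TPM in M2, and the EM clones had means of 5.2 (EM1), 5.68 (EM2) and 7.25 (EM3) TPM. E was lowest at 1.05 TPM, with 4.24 TPM in Parental. Against E it rose in EM2, M1 and M2 by 2.21 ± 0.66, 2.41 ± 0.66 and 2.06 ± 0.66 log2 units (edgeR adjusted p = 0.0312, 0.00834 and 0.0138). EM1 and EM3 stood at 1.84 ± 0.65 and 1.83 ± 0.65 and just missed the threshold (edgeR adjusted p = 0.0576 and 0.0602). FOS averaged 31.4 TPM in M1, 28.3 in M2 and 125 in E and fell by 2.76 ± 1.02 and 3.41 ± 1.06 (edgeR adjusted p = 0.0416 and 0.0116).

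Of 12 matrix substrates, 9 were higher and 2 lower in M1 against E, and 2 higher and 6 lower in M2 against E. In EM2 against E 5 were higher and none lower, in EM3 against E 1 was higher, and in EM1 against E 1 was lower. COL1A1, the chain of type I collagen that MMP1, MMP13 and MMP14 cut, averaged 659 TPM in M1, 15.2 in M2 and 6.17 in E. It rose in M1 by 6.57 ± 0.74 log2 units and was not called in M2 (0.70 ± 0.59; edgeR adjusted p = 2.02e-06 and 0.335). Decorin (DCN), a proteoglycan of collagen fibrils, averaged 2001 TPM in M1, 11.3 in M2 and 46 in E, and rose by 5.30 ± 0.45 in M1 and fell by 2.17 ± 0.39 in M2 (edgeR adjusted p = 5.8e-08 and 0.000161). LAMA3 and LAMB3, chains of a basement membrane laminin that MMP2 and MMP14 cut, fell in M2, at -5.75 ± 0.90 and -8.20 ± 1.26 log2 units (edgeR adjusted p = 3.66e-05 and 2.72e-05). In M1, LAMA3 fell by 5.29 ± 0.88 (edgeR adjusted p = 0.000139), and LAMB3 was at -2.26 ± 0.96 (edgeR adjusted p = 0.0734).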

How the data were processed

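RNA with a poly(A) tail was sequenced from 1 end. Per the submitters' processing notes, reads were made with bcl2fastq 2.20.0.422, trimmed with cutadapt 2.4, aligned to hg38 with STAR 2.7.2b and counted with RSEM 1.3.2. The annotation release and strand setting are not given in the sources used here. Per the file headers, each library's table gave the authors' expected counts, which need not be whole (7.44 to 8.61% of a library's values were not), TPM, which the authors' RSEM run scaled by effective length, and the deposited effective length in bases, another column. Positions are from GENCODE 29, which held 58542 of the 60617 genes. CPM divides a count by the library total.

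After rounding, the expected counts went into edgeR 4.0.16 under R 4.3.3 (robust quasi-likelihood fit, TMM scaling, genes with low counts dropped by line). A single model of the 21 libraries had 14 residual degrees of freedom and gave 10 comparisons, each with its own Benjamini-Hochberg adjustment. The common biological coefficient of variation was 0.344. A line with 0 counts was set at 3 counts over the line for a bound. Ratios from 1 to 3 counts have an exact 95% interval of counting error only. The labels do not say whether a line's libraries are separate cultures. The p-values therefore cover the spread among these libraries only, which may be technical.

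Alternatives were no low-count filter, a floor of 1 on mean CPM, the size factors and the Wald test of DESeq2 1.42.0, limma 3.58.1 voom, limma-trend on log2(TPM + 1) where mean TPM reached 1, the libraries of the 2 lines only, a replicate block, the library set as a term or 1 set alone, a covariate of mean effective length, and every library left out in turn. Mean effective length was taken over 12248 genes with at least 10 counts in every library (1957 to 2021 bases in the short set, 2098 to 2213 in the long set, 2034 to 2096 in Parental). Same-numbered libraries deviated together, with every correlation above 0.1, in EM3 against EM2 only (lowest 0.399), so the numbers were taken as pairs there alone. Pairs of libraries of 1 line differed by far more than sampling noise.

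The 10 members were tested in every comparison, and the heat map shows those not given in words. From each of 6 other lists (72 genes), genes named are called genes, up to 3 per direction by size of change, and others named beside a member were chosen after their values were seen (MMP15, MMP17, FURIN, PLAU in M2 against E, DCN, LAMB3 in M1 against E, and COL1A1 in M2 against E). For likeness, genes whose mean TPM reached 5 in some line were searched. Some genes of these lists are counted but not reported by name here. The members and lists were chosen with earlier results of these data known. Other steps used Python 3.11.15 with scipy 1.17.1, numpy 2.4.6, matplotlib 3.10.9 and pandas 2.3.3. Promoter sequences were in the RefSeq table for MMP7, MMP14, TIMP1 and TIMP3.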

Additional observations from a re-analysis of the deposited data

Results flagged for a closer look

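For 4 results, 2 clones differed from E in opposite directions and the difference between the 2 clones was itself called. MMP13 was lower in M2 and higher in M1 than in E, and M2 differed from M1 at an edgeR adjusted p of 8.54e-11. MMP14 was lower in M2 and higher in M1, with an edgeR adjusted p of 1.31e-10 for M2 against M1. MMP1 was lower in M2 and higher in M1, with an edgeR adjusted p of 7.31e-07 for M2 against M1. MMP1 passed the low-count filter only through the M1 libraries, so its calls involving M1 add little to the levels themselves. MMP9 was lower in EM3 and higher in EM2 than in E, with an edgeR adjusted p of 0.00159 for EM3 against EM2. In each case the 2 comparisons with E share the E libraries, and the difference rests on the 2 clones alone. No group had enough libraries for a test of outlying samples.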

How the results depend on the processing

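Of the 43 member calls, 28 held under every alternative fit that could be run for them (29 to 32 of 32 fits). Of 3122 alternative values, 2939 kept direction and call, 75 lost the call, 107 gained it and 1 changed sign with a call, namely TIMP1 in EM2 against E within the short set (0.50 on the log2 scale). The number of members called in EM1 against E (1 in the full fit) was 7 without a low-count filter (10.3% of all genes called), 5 with the DESeq2 Wald test (22.7%), 2 with limma-voom (18.6%), 3 with the libraries of the 2 lines only (27%), 4 with the replicate block (25.5%), 3 with the library set as a term (18.5%) and 5 within the short set (42.1%). In EM2 against E (4) it was 7 within the short set (35.8%), in M1 against E (6) 10 within the short set (55.7%), and in EM3 against E (5) 3 with mean effective length as a covariate (17.5%). In EM3 against EM1 (1) it was 3 without a low-count filter, 2 with the DESeq2 Wald test, 0 with the 2 lines only (6 members tested), 2 with the set term, 0 within the long set and 2 with the length covariate, with at most 0.859% of all genes called in any of these fits. In EM3 against EM2 (3) it was 1 with the 2 lines only (4.68%) and 5 with the length covariate (11.2%), and in E against Parental (4) it was 2 with limma-trend on TPM (10.4%), where 8 members were tested. The library sets cannot be fitted for E against Parental.

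With 1 library left out at a time, the number called was 1 to 4 in EM1 against E, 3 to 4 in EM2 against E, 3 to 6 in EM3 against E, 6 to 7 in M1 against E, 8 to 8 in M2 against E, 4 to 7 in M2 against M1, 4 to 6 in EM2 against EM1, 0 to 2 in EM3 against EM1, 1 to 4 in EM3 against EM2 and 2 to 4 in E against Parental. The share of all genes called in these fits is not given here. A change in the members therefore cannot be told apart from a change in calls over all genes. In EM1 against E it was 4 without EM1 replicate 3, where MMP3, MMP14 and TIMP1 were also called. It was 3 without Parental replicate 1 or 2 and 2 without M1 replicate 1 or M2 replicate 1. In EM3 against EM1 it was 0 without any 1 of 15 libraries and 2 without M2 replicate 3. In EM3 against E it was 3 without E replicate 1. In EM3 against EM2 it was 1 without EM2 replicate 1, and in E against Parental 2 without E replicate 2, Parental replicate 1 or Parental replicate 3. Deviations of same-numbered libraries had correlations of -0.255 to 0.791 (median 0.128), with 34 of 63 pairs over 0.1, and for 11 of 21 libraries the best match had the same number. The replicate block gave 4, 4, 5, 7 and 8 calls against E in EM1, EM2, EM3, M1 and M2. The shares of all genes called in that fit were 25.5%, 18.8%, 24.4%, 42.5% and 55.7%, each above its share in the full fit. Outside EM3 against EM2 the numbers were not taken as pairs. The causes of these changes were not tested. Depth limits MMP1, MMP3, MMP13 and TIMP3 in the lines with a few counts.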
